A study of Mus musculus with 15 samples.

Results

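Hap1, P3h4, Fkbp10, Nt5c3b, Klhl10, Klhl11, Acly, Cnp, Dnajc7 and Nkiras2 are 10 genes beside Jup on mouse chromosome 11, with the keratin genes of that region left aside. They were picked because their values were high together in some of the 15 mammary tumors measured here. The shared rise is therefore a description of the choice and carries no test. Of the 10 genes, 8 had a transcript cluster (a set of array probes read as 1 value) that lists a single gene symbol. The array held 22180 genes of this kind, of which 14243 passed the filter on low values, and all 8 were among them. Klhl10 passed narrowly, above the array's median on 5 arrays, the fewest allowed, and these were the arrays of the 5 tumors in which it was high. Fkbp10 had no listed cluster, and Nkiras2 was listed only on a cluster that also lists Dnajc7, so neither has a value of its own.

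RNA came from tumors of mice labelled ErbB2KI, a mouse model of Erbb2-driven breast cancer, frozen at end burden. All groups share this ErbB2KI background. The groups were Ctnnb1 wt/wt (WT), Ctnnb1 fl/wt (HET) and Ctnnb1 fl/fl (HOM), with 5 tumors each and 1 array per tumor. The floxed alleles were meant for deletion in the mammary epithelium, so other cells of these bulk tumors keep Ctnnb1. The labels name no Cre line, strain or age. Nothing in the labels ties each tumor to a mouse of its own, so any p-value speaks of the spread among these tumors, which may hold tumors of 1 animal. Array medians lay between 5.54 and 5.73 on the log2 scale. Epithelial markers (17 of 18 tested) had a mean level of at least 9.56 in 14 tumors, and 7.87 in HET 1. Ctnnb1 went against the label in 2 tumors: it was 11.22 in WT 5, against 11.71 to 12.10 in the other WT tumors, and 12.01 in HOM 5, against 11.15 to 11.58 in the other HOM tumors. In HET, Ctnnb1 ran from 11.22 to 11.66, which overlaps the HOM range and comes close to WT 1 at 11.71. Its level thus does not separate the genotypes cleanly. Whether the labels of WT 5 and HOM 5 were exchanged was not tested, and every WT and HOM mean below rests on them as given. WT 5 and HOM 5 stand below for the tumors with these labels, and results between genotypes are given with and without both.

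Jup encodes plakoglobin, a protein of desmosomes and adherens junctions that is a close relative of beta-catenin, the product of Ctnnb1. Its neighbours serve different tasks. Acly makes cytosolic acetyl-CoA for fatty acids and sterols, P3h4 and Fkbp10 serve collagen maturation in the endoplasmic reticulum, and Klhl10 and Klhl11 are adaptors of Cul3 ubiquitin ligases. Hap1 binds huntingtin and motor proteins of vesicle transport, Cnp is an enzyme of myelin-forming cells, and Nt5c3b is a nucleotidase. Dnajc7 is a co-chaperone of Hsp70 and Hsp90, and Nkiras2 restrains NF-kappaB. Erbb2 lies on the same chromosome.

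Promoter windows were read from RefSeq (build GRCm38.p6) as the 250 bases before a gene's start, and 8 of the 10 genes had at least 1 window, 11 in all. P3h4 and Fkbp10 had none. The genes stand on both strands: Hap1, Jup, Nt5c3b, Klhl11, Acly and Dnajc7 on the minus strand, Klhl10, Cnp and Nkiras2 on the plus strand. Klhl10 and Nt5c3b stand head to head, and 1 window of Nt5c3b shares 115 bases with that of Klhl10. A second Nt5c3b window, at chr11:100441099-100441348, does not overlap it. The window of Klhl10 is shown first because 1 stretch of DNA lies before 2 genes that were high in the same tumors, and its capitals mark the shared bases. The windows of Klhl11, Acly and Cnp follow, since these genes were high in all 5 tumors described below, and that of Dnajc7, where the rise ended in some tumors. In these 4 windows capitals mark motif letters.
Klhl10, shared with Nt5c3b (chr11:100441674-100441923, plus strand): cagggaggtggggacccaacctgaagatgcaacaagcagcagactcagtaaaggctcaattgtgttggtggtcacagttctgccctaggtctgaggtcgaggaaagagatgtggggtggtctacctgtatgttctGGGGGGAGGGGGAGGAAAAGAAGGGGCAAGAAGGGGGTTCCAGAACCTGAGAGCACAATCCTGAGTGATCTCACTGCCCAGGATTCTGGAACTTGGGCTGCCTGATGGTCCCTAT
Klhl11 (chr11:100472783-100473032, minus strand): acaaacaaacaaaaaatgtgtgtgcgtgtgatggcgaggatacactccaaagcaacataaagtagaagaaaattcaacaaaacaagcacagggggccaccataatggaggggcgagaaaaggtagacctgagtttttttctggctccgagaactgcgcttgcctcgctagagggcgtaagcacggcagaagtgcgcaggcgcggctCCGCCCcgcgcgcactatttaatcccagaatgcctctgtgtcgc
Acly (chr11:100528001-100528250, minus strand): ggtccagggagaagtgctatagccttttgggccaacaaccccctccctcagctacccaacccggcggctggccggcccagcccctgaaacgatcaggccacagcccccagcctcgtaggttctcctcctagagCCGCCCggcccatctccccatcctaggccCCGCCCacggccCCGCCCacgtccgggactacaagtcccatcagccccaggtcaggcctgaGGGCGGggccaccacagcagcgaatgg
Cnp (chr11:100574689-100574938, plus strand): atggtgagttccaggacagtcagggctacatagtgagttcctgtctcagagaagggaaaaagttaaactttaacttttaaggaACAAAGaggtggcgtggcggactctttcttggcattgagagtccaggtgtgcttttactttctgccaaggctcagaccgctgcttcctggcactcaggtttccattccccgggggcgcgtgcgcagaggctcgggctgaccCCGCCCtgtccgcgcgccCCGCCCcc
Dnajc7 (chr11:100619628-100619877, minus strand): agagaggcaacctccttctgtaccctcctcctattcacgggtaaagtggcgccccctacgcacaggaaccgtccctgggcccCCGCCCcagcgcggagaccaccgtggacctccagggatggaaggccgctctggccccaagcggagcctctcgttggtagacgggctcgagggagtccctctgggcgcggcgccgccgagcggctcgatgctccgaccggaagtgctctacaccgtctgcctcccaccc
Motifs were searched on both strands. The GC box (letters GGGCGG) was in 5 of the 11 windows, those of Klhl11, Acly, Cnp, Dnajc7 and Nkiras2, and in 32.7% of the 32851 windows of all genes. The core bound by TCF and LEF factors, partners of beta-catenin (letters CTTTGA or CTTTGT), was in 1 of the 11, that of Cnp, against 27.6% of all windows. The CCAAT box was in 1 of the 11, a second window of Dnajc7, against 33.8%. The TATA box (letters TATAAA) was in 0 of the 11 and in 12.4% of all, and the E-box (letters CACGTG) in 0 of the 11 and in 6.02% of all. No motif was in all windows of the genes that were high together.

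For each gene the value in a tumor was set against the gene's median over the 15 tumors, and a gene was called raised where it lay 1 or more above that median on the log2 scale, a doubling. All 8 genes were raised in WT 5, where 1.43% of all tested genes were raised, and 7 of 8 in each of HOM 1, HOM 2, HOM 3 and HOM 4, where 1.31%, 2.02%, 1.5% and 1.52% of all tested genes were. The median difference of the 8 genes was 1.78 in WT 5, 1.51 in HOM 1, 1.64 in HOM 2, 1.97 in HOM 3 and 1.75 in HOM 4, folds of 3.43, 2.85, 3.11, 3.92 and 3.37. In the same tumors the median difference of all tested genes lay between 0 and 0.03. In bulk tumors more cells that express a gene and more RNA per cell cannot be told apart. Only Acly was raised in WT 1 (4.37% of all tested genes) and only P3h4 in HET 3 (2.18%). In the other 8 tumors 0 of the 8 genes were raised. The shares of all tested genes there were 2.09%, 2.86% and 2.68% in WT 2, WT 3 and WT 4, 6.89%, 5.02%, 8.91% and 2.52% in HET 1, HET 2, HET 4 and HET 5, and 3.16% in HOM 5. The tumor labelled HOM 5 thus lacked what the other HOM tumors had, and the one labelled WT 5 had it, the same 2 tumors whose Ctnnb1 went against the label. Just inside the threshold were Klhl10 in HOM 2 at 1.06 and in HOM 1 at 1.07, and just outside it Hap1 in HET 3 at 0.99 and Klhl10 in HOM 3 at 0.97.

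**Figure D1:**
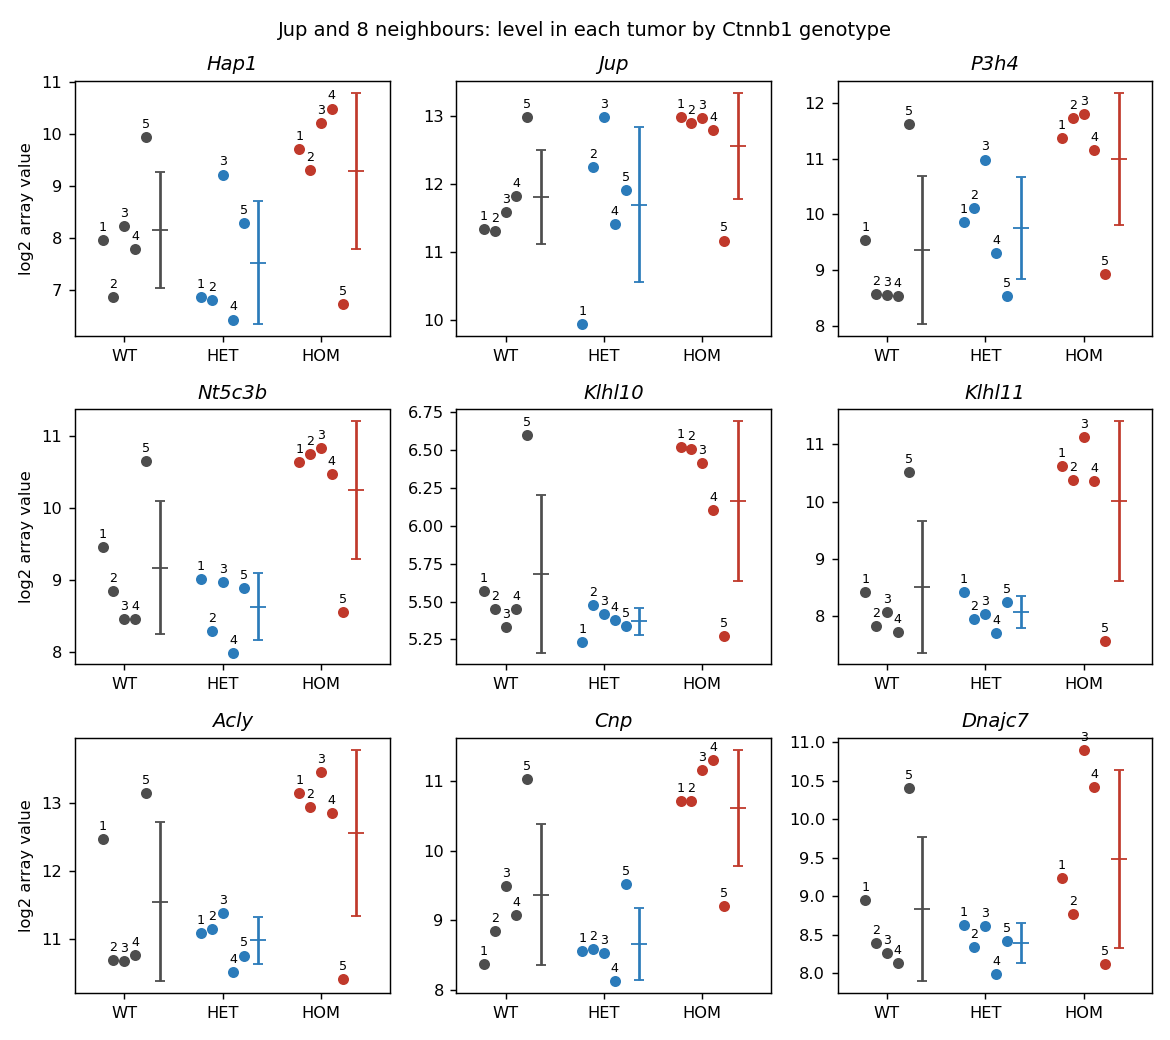
Log2 array value of Jup and of the 8 genes with a value, in each of 15 tumors grouped by Ctnnb1 genotype; each point is a tumor with its replicate number, and the bars give the mean and SD of 5 tumors. HOM 1 to HOM 4 and WT 5 sit high in most panels, as for Klhl11 at 10.36 to 11.12, while HOM 5 sits low at 7.57.

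Klhl11, an adaptor that gives a Cul3 ubiquitin ligase its substrates, left a wide gap between tumors. Its levels were 8.42, 7.83, 8.07, 7.73 and 10.52 in WT 1 to WT 5, 8.43, 7.94, 8.04, 7.71 and 8.25 in HET 1 to HET 5, and 10.62, 10.37, 11.12, 10.36 and 7.57 in HOM 1 to HOM 5. WT 5 and HOM 1 to HOM 4 were high, the other 10 tumors lay between 7.57 and 8.43, and nothing lay between. The genotype groups overlapped through WT 5 and HOM 5. Klhl10, an adaptor of the same family known from spermatids, had levels of 5.57, 5.45, 5.33, 5.45 and 6.60 in WT, 5.24, 5.48, 5.42, 5.38 and 5.34 in HET, and 6.52, 6.51, 6.42, 6.10 and 5.27 in HOM. The same 5 tumors were high, by 0.65 to 1.15 over the median, but the other 10 lay at or below 5.57, not above the medians of their arrays.

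Nt5c3b, a nucleotidase that acts on the cap nucleotide of messenger RNA, had levels of 9.46, 8.85, 8.47, 8.46 and 10.66 in WT, 9.01, 8.30, 8.98, 7.99 and 8.89 in HET, and 10.65, 10.75, 10.84, 10.48 and 8.56 in HOM. The 5 high tumors, between 10.48 and 10.84, were the same as for Klhl11, and WT 1 was the highest of the rest. Acly, ATP citrate lyase, had levels of 12.46, 10.69, 10.68, 10.77 and 13.14 in WT, 11.09, 11.15, 11.38, 10.52 and 10.76 in HET, and 13.15, 12.94, 13.44, 12.85 and 10.42 in HOM. Here WT 1 was high as well, though below the 5 other high tumors, and the remaining 9 lay at or below 11.38. The gene models of Nt5c3b and Klhl10 overlap in the RefSeq table, as do those of Fkbp10 and Nt5c3b, Cnp and Dnajc7, and Dnajc7 and Nkiras2. Whether probes of 1 gene also read its neighbour is not known here.

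P3h4, which works with collagen-modifying enzymes of the endoplasmic reticulum, had levels of 9.54, 8.57, 8.56, 8.53 and 11.62 in WT, 9.86, 10.12, 10.98, 9.30 and 8.55 in HET, and 11.37, 11.72, 11.80, 11.16 and 8.93 in HOM. The same 5 tumors were highest, but HET 3 came close at 10.98, and the others were spread from 8.53 to 10.12 with no clear gap. Fibroblast markers, whose cells make collagen, had a mean level of 9.49 in WT 5, 9.68, 8.80, 8.21 and 9.86 in HOM 1 to HOM 4, and their highest mean, 11.63, in HET 4, where P3h4 was 9.30.

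Hap1, which links huntingtin to motor proteins, had levels of 7.95, 6.85, 8.23, 7.79 and 9.93 in WT, 6.86, 6.81, 9.22, 6.43 and 8.28 in HET, and 9.71, 9.30, 10.21, 10.48 and 6.72 in HOM. The 5 tumors again lay above all others, but HOM 2 at 9.30 was barely above HET 3 at 9.22. Cnp had levels of 8.38, 8.85, 9.49, 9.08 and 11.03 in WT, 8.56, 8.59, 8.53, 8.12 and 9.53 in HET, and 10.72, 10.71, 11.16, 11.31 and 9.21 in HOM. All 5 stood clear of the other tumors, which reached at most 9.53. Schwann and nerve markers, of cells that also make Cnp (6 of 9 tested), had a mean level of 8.30 in WT 5 and 7.98, 7.45, 7.85 and 7.46 in HOM 1 to HOM 4. They were 8.34 in WT 3 and 8.33 in WT 4, where Cnp was 9.49 and 9.08.

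Dnajc7, a co-chaperone that passes client proteins between Hsp70 and Hsp90, split the 5 tumors. Its levels were 8.95, 8.39, 8.27, 8.14 and 10.41 in WT, 8.63, 8.34, 8.61, 7.99 and 8.42 in HET, and 9.24, 8.77, 10.91, 10.42 and 8.12 in HOM. WT 5, HOM 3 and HOM 4 were high, by 1.80, 2.30 and 1.81 over the median. HOM 1 and HOM 2 were not raised, at 0.63 and 0.16, and HOM 2 lay below WT 1. The cluster that lists both Dnajc7 and Nkiras2 gave the same split, with levels of 10.66 in WT 5, 9.16 in HOM 1, 8.72 in HOM 2, 11.13 in HOM 3 and 10.49 in HOM 4, and of at most 8.67 in the other 10 tumors. Which of the 2 genes it reads is not known here.

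Jup itself had levels of 11.34, 11.31, 11.60, 11.82 and 12.98 in WT, 9.94, 12.25, 12.98, 11.42 and 11.91 in HET, and 12.98, 12.90, 12.97, 12.79 and 11.17 in HOM. It was high in the 5 tumors and as high in HET 3, and lowest in HET 1, the tumor with the lowest epithelial marker level. Its differences from the median in the 5 tumors, 0.89 to 1.08, were smaller than those of Klhl11, 2.11 to 2.88. Across the 15 tumors, the 28 pairs among the 8 genes had Pearson correlations from 0.67 to 0.97 with a median of 0.86. All points share the 15 arrays and fall into high and low tumors, so the correlations restate that split and are given with no p.

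To find where the rise starts and ends, tested genes were followed outward from Jup in chromosome order in each tumor, until 2 genes in a row were not raised. A run of at least 3 raised genes was found in 5 tumors, WT 5 and HOM 1 to HOM 4. At this threshold all 5 runs started at Hap1, the first tested gene before Jup. Gast, the gastrin gene and the next tested gene outward, was flat in all 15 tumors, with levels from 6.34 to 6.98. Whether Gast is expressed in these tumors is not known, so its flat values do not place the start of the rise. Krt42, beyond Gast, was at most 0.84 over its median in the 5 tumors. The other end differed from tumor to tumor. The run ended at Cnp in HOM 1 and HOM 2, 7 tested genes after Jup, at Dnajc7 in WT 5, 8 after it, at Zfp385c in HOM 3, 9 after it, and at Kat2a in HOM 4, 11 after it. With a threshold of 1.5 in place of 1, 2 tumors had a run, WT 5 and HOM 3, both from Hap1. Where Jup was not raised, a run was counted only with raised genes on both sides of it. HOM 1 and HOM 2 were therefore not counted, as Hap1 and Jup fell short of 1.5. Their P3h4, Nt5c3b, Klhl11, Acly and Cnp stayed above 1.5, so their rise then began at P3h4. In HOM 4 Jup and P3h4 both fell short, at 0.89 and 1.30. When a single gene that was not raised ended the run, 3 tumors had one, with the end in HOM 3 at Nt5c3b. The start moved too. With a threshold of 0.5 the run began among the keratins in 3 of the 5 tumors, at Krt19 in WT 5, Krt14 in HOM 2 and Krt42 in HOM 4, and still at Hap1 in HOM 1 and HOM 3. It then ended at Zfp385c in WT 5, Dnajc7 in HOM 1 and Stat5b in HOM 4. With the lower quartile in place of the median it began at Krt15 in HOM 4. HOM 2 was not counted with the mean in place of the median, nor when arrays were centred on their medians. In both settings its Hap1 and Jup fell short of the threshold, while its P3h4 was still raised. HET 3 had no run by the rule, because Jup and P3h4 were raised at 1.08 and 1.13 while Hap1 stood at 0.99 and Nt5c3b at 0.00. It gained a run from Krt15 to P3h4 with a threshold of 0.5, with the lower quartile, and after renewed quantile normalization. Skeletal muscle markers in HET 3 had a mean level of 11.55, against 5.97 to 7.32 in the other tumors, and their part in its values was not tested.

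**Figure D2:**
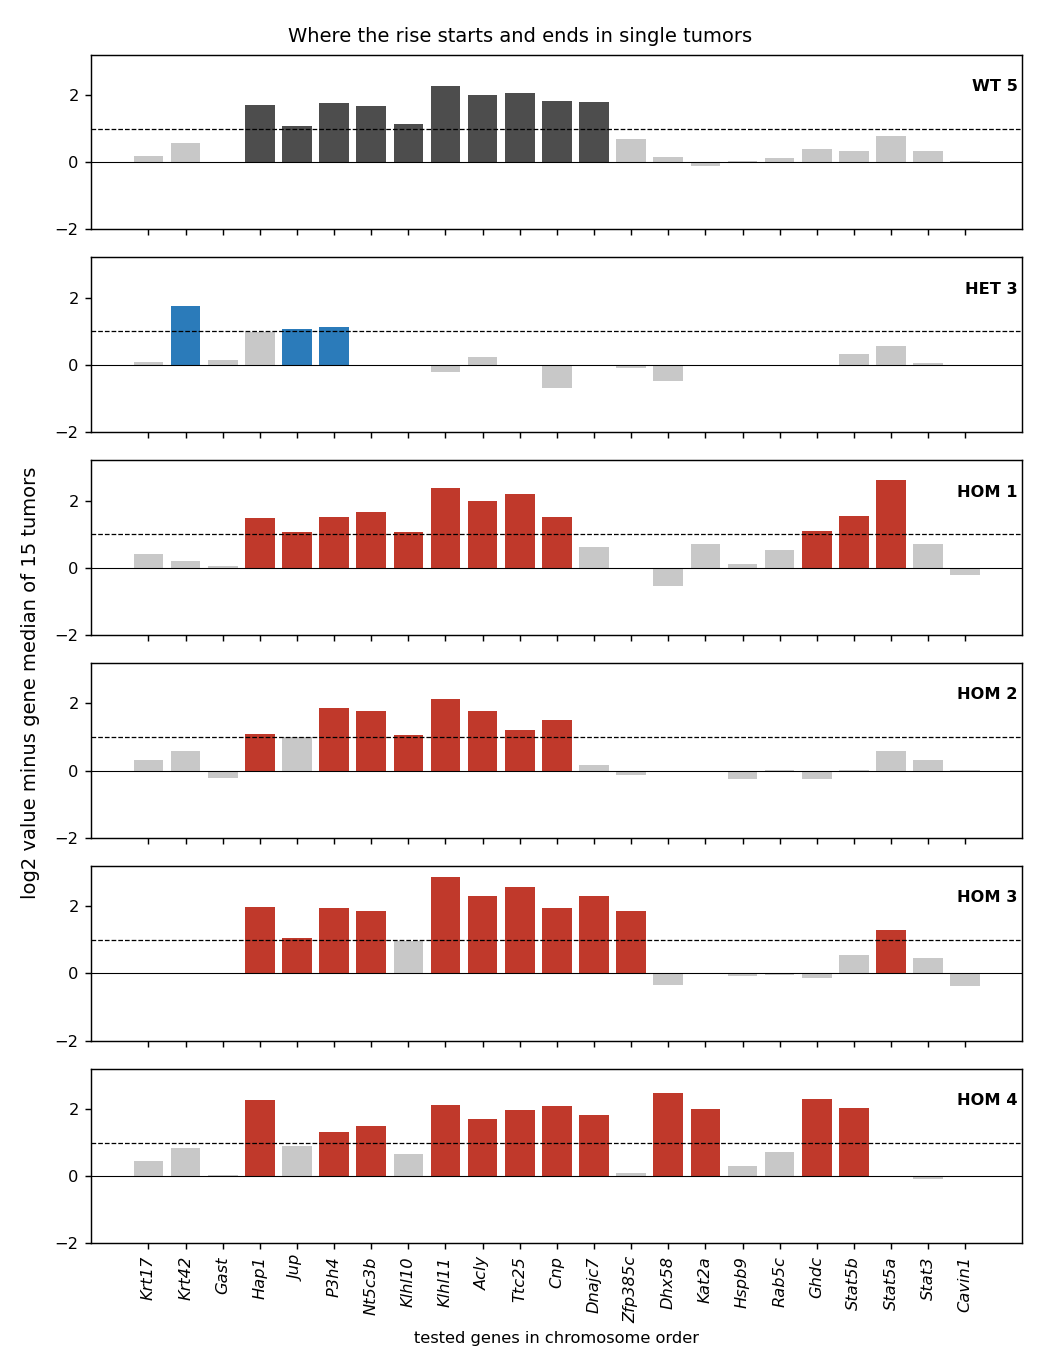
Log2 value minus the gene's median over 15 tumors, for 23 tested genes in chromosome order around Jup, in the 5 tumors with a run and in HET 3; coloured bars reach the dashed line at 1, grey bars do not. With the threshold of 1 the run starts at Hap1 in all 5 tumors and stops at Cnp, Dnajc7, Zfp385c or Kat2a; with 0.5 it starts among the keratins in 3 of them.

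Genes at the far end showed how the tumors differed. Ttc25, a gene of motile cilia between Acly and Cnp, had levels of 8.59 in WT 5 and 8.75, 7.76, 9.11 and 8.49 in HOM 1 to HOM 4. It was 8.20 in WT 1, which was also high for Acly, and 5.21 to 7.496 in the other tumors. Zfp385c was 7.85 in HOM 3 and 5.66 to 6.67 in the other 14. Dhx58, which encodes a helicase of antiviral sensing, was raised by 2.47 in HOM 4, and also by 1.497 in WT 3, 1.05 in WT 4 and 1.56 in HET 5, tumors in which 0 of the 8 genes were raised. Kat2a, a histone acetyltransferase gene, was 11.65 in HOM 4 and at most 10.35 elsewhere. Hspb9, the next gene, was not raised in any tumor.

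Past the end of the run, HOM 4 had further raised genes, with Ghdc at 2.28 and Stat5b at 2.02, and then Stat5a at 0.00. HOM 1 had Ghdc at 1.08, Stat5b at 1.53 and Stat5a at 2.62, although the genes from Dnajc7 to Rab5c were not raised in it. Stat5a and Stat5b encode the transcription factors of prolactin signalling in the mammary gland. Stat3, beside them, was not raised in any tumor. Stat5a was also raised in WT 1, at 1.71, and HOM 3, at 1.29. On the side toward Erbb2, beyond the keratins, WT 5 and HOM 1 had another raised stretch, with Med24, a subunit of the Mediator complex, at 1.21 and 2.33. Med24 was not raised in HOM 2, HOM 3 or HOM 4, at 0.10, 0.09 and -0.00122, and was raised in HET 5, at 2.55. Between that stretch and Hap1 stood keratins, of which some were partly high in the same tumors. Krt19, a keratin of luminal cells, was raised in WT 5, HOM 1 and HOM 4, at 1.19, 1.39 and 1.29, and also in HET 3 at 1.17. Krt14, of basal cells, was 0.68 to 0.95 over its median in 4 of the 5 tumors and 0 in HOM 3. The only tumor in which Krt14 was raised was HET 2, at 1.57, and it stood at 0.92 in HET 4. Krt16 was raised in HOM 2, at 2.57, but also in HET 2, HET 3 and HET 4, at 3.53, 1.85 and 1.57. Keratin 17 (Krt17), of basal and squamous cells, was between 0 and 0.45 over its median in the 5 tumors.

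**Figure D3:**
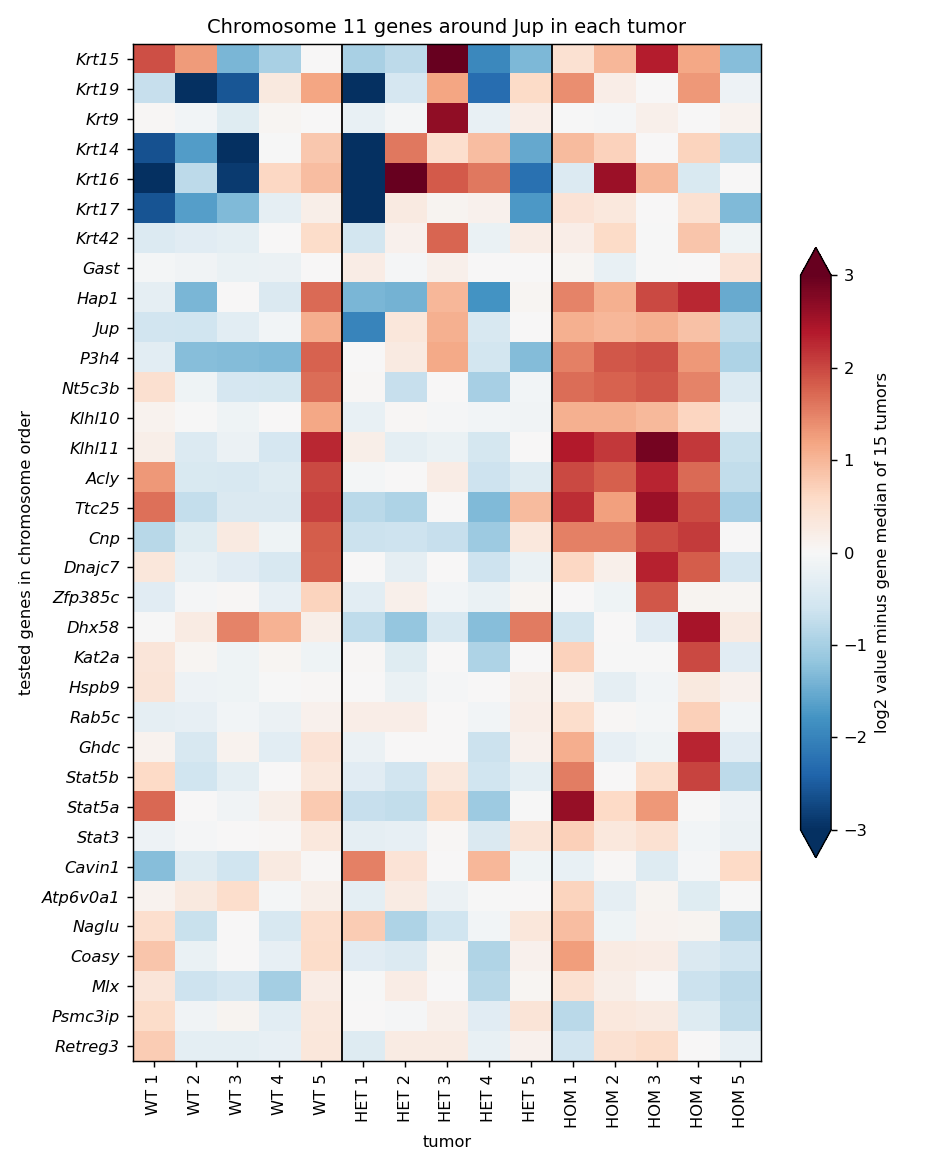
Heat map of the log2 value minus the gene's median over 15 tumors, for tested genes in chromosome order from Krt15 to Retreg3 (rows) and 15 tumors by genotype (columns), with the colour scale ending at 3 and -3. A red block from Hap1 to Cnp marks WT 5 and HOM 1 to HOM 4. Gast, flat in all 15 tumors, is pale on 1 side. The end on the other side lies at Cnp in HOM 1 and HOM 2 and further out in the other 3.

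The comparisons of genotypes asked what goes with 1 or 2 floxed Ctnnb1 alleles. The 8 genes and Jup all had higher means in HOM than in WT. Klhl11 was 10.01 ± 1.40 (SD, n = 5) in HOM and 8.51 ± 1.15 in WT, Acly 12.56 ± 1.22 and 11.55 ± 1.17, and P3h4 10.99 ± 1.18 and 9.36 ± 1.33. The log2 differences ran from 0.48 for Klhl10 to 1.63 for P3h4 (95% interval 0.19 to 3.08), and with limma's adjusted p, which rounds to 1, 0 of the 9 passed 0.05. Over all tested genes 0% passed in either direction, and 242 genes, of which 4 were among the 9, had an unadjusted p under 0.05. HOM against HET gave differences from 0.80 for Klhl10 and 0.86 for Jup to 1.96 for Cnp (95% interval 0.93 to 2.98), with limma's adjusted p between 0.587 and 0.689. Jup's difference was 0.42 without HET 1. With the epithelial marker level as a covariate Jup's difference was 0.15 and that of Hap1 1.08 in place of 1.77. Here 0 of 9 and 0% of all genes passed, with 1129 genes and 6 of the 9 at an unadjusted p under 0.05. In HET against WT, 8 of the 9 had lower HET means, from -0.70 for Cnp to -0.11 for Jup, and P3h4 was 0.40 higher. Single tumors moved these values: without WT 5 the difference was 0.96 for P3h4 and -0.28 for Cnp, and 3 of the 9 had a higher HET mean, while without HET 3 it was 0.09 for P3h4. Again 0 of 9 passed, against 0% of all genes in the higher and 0.014% in the lower direction, and 1905 genes but 0 of the 9 had an unadjusted p under 0.05. The 3 comparisons share tumors in pairs, and each was made over 14243 tested genes. The 8 genes were chosen for being high together in some of these tumors. Their counts at an unadjusted p under 0.05 therefore cannot be read against the counts over all genes and are no test. Klhl10 also passed the filter only through the tumors in which it was high.

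Without the tumors labelled WT 5 and HOM 5, Klhl11 was 10.62 ± 0.36 (SD, n = 4) in HOM and 8.01 ± 0.31 in WT, a log2 difference of 2.61 (95% interval 2.14 to 3.07, limma's adjusted p = 0.000558). It was 1 of 2 genes past the threshold in the higher direction, 0.0141% of those tested. Against HET, 3 of the genes passed, Klhl11 (2.54, adjusted p = 0.000405), Nt5c3b (2.05, 0.0116) and Cnp (2.31, 0.0116 by limma), out of 4 genes in all, 0.0283%. Acly was 13.09 ± 0.26 in these HOM tumors and 10.98 ± 0.34 in HET, a difference of 2.11 (adjusted p = 0.101). Klhl10 did not pass the filter on low values without these tumors, and its means were 6.39 ± 0.20 in HOM and 5.45 ± 0.10 in WT. The 2 tumors left out are also the only WT tumor with the rise and the only HOM tumor without it, so leaving them out decides these differences. The genes were chosen from values of the same tumors as well, so these p-values are no test of the genes and no independent evidence. In HET against WT without both tumors 0 of the genes passed. Over all genes 0 passed in the higher and 2 in the lower direction, 0% and 0.0141%, and P3h4 was 0.96 higher in HET (unadjusted p = 0.0354, limma's adjusted p = 0.318).

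Partners of the neighbours in their pathways were counted in the same way, and since 1.31% to 2.02% of all tested genes were raised in the 5 tumors, a list of about 20 genes with no raised member does not stand apart from them. The counts are given as values only. Fatty acid and sterol synthesis genes (21 of 24 tested) had a mean level of 9.55 in WT 5 and 9.63, 9.55, 9.82 and 9.52 in HOM 1 to HOM 4, within the range of 8.80 to 10.005 of all tumors. In these 5 tumors 0 of the 21 were raised, against 5 in WT 1. The list's brightest members were Scd1, a fatty acid desaturase, at 11.59 in WT 5 and 11.90 to 12.61 in HOM 1 to HOM 4 against 10.94 to 12.77 elsewhere, and Fads2, another desaturase, at 11.82 in WT 5 and 11.96 to 12.14 in HOM 1 to HOM 4 against 9.15 to 12.46 elsewhere. Genes of collagen modification (15 of 17 tested) had 0 raised members in the 5 tumors and 7 in HET 4. Ppib and P4hb, both folding enzymes of collagen, stayed between 12.14 and 12.57 and between 11.67 and 12.58 over all tumors. Partners in Cul3 ligases (20 of 21 tested) had 0 raised members in any tumor, with Cul3 itself between 10.62 and 11.23 and Klhl24 between 9.90 and 11.06. Chaperones of the Hsp70 and Hsp90 systems (19 of 22 tested) also had 0 in any tumor, with Hspa8 between 12.31 and 12.65 and Hspa4 between 11.21 and 11.63.

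**Figure D4:**
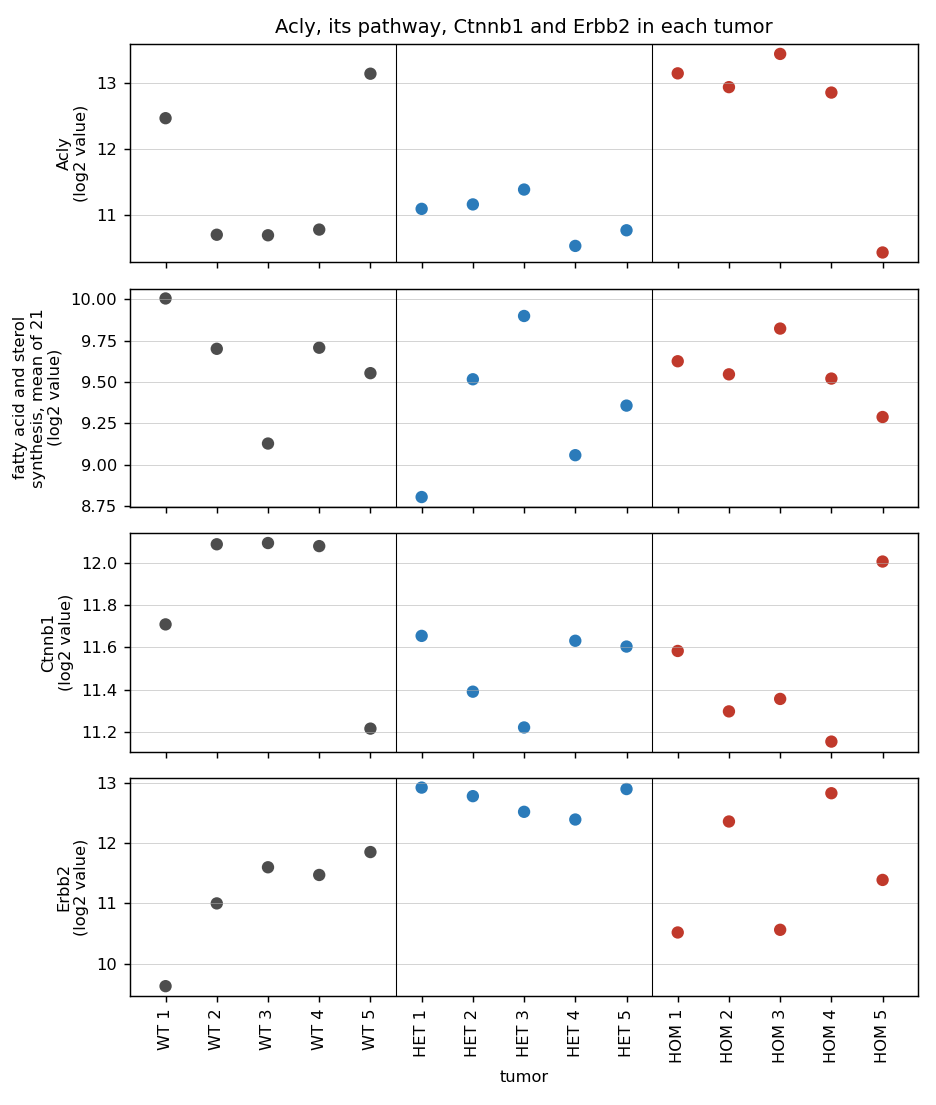
Log2 array value of Acly, mean of 21 fatty acid and sterol synthesis genes, Ctnnb1 and Erbb2 in each of 15 tumors, coloured by genotype (grey WT, blue HET, red HOM). Acly is at 12.85 or more in WT 5 and HOM 1 to HOM 4, where the pathway mean stays between 9.52 and 9.82 and Erbb2 ranges from 10.52 to 12.83.

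The counts of the other lists are likewise read against a share of 1.31% to 2.02%. NF-kappaB subunits and inhibitors (13 of 15 tested, with Rela at 10.49 to 11.26 and Nfkbia at 9.58 to 11.11) and nucleotidases (13 of 15, with Nt5dc2 at 9.19 to 12.73 and Uck2 at 10.60 to 12.33) had 0 raised members in the 5 tumors. Huntingtin and kinesin partners (13 of 14, with Kif5b at 10.65 to 11.27 and Dctn2 at 10.52 to 11.07) had 1, in HOM 1. Myelin and Schwann cell genes (7 of 12, with Sox10 at 6.92 to 11.73 and Egr2 at 7.73 to 10.65) had 1, in WT 5. Spermatid genes (3 of 12, with Odf1 at 12.15 to 12.94 and Acr at 5.53 to 6.21) had 0 in any tumor. Collagens and fibroblast markers (15 of 15, with Postn at 9.67 to 13.10 and Dcn at 5.11 to 13.00) had 0 in the 5 tumors. Junction partners of plakoglobin (15 of 15) had 0 in WT 5, HOM 1 and HOM 4, 2 in HOM 2 and 1 in HOM 3. Cdh1, E-cadherin, was between 11.54 and 11.95 in the 5 tumors. Between genotypes 0 genes of these 11 lists passed in any comparison by limma. The lists' median log2 differences of HOM from WT lay between -0.07 and 0.25, against -0.01 over all genes, and were -0.01 for fatty acid and sterol synthesis.

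Erbb2, the driver of the model, was 11.85 in WT 5 and 10.52, 12.36, 10.56 and 12.83 in HOM 1 to HOM 4, and 12.39 to 12.92 in HET. The 5 tumors thus held both low and high Erbb2 values. Cell type markers differed among the 5 as well. Their epithelial mean was 10.70 to 11.03, against 7.87 to 11.15 elsewhere. Of the other 10 tumors, 7 lay below all 5, the nearest being WT 3 at 10.66, so this marker level went only partly with the rise. HET 3 at 10.75, WT 4 at 10.93 and HET 5 at 11.15 lay as high without a run by the rule. The pan-leukocyte mean of the 5 was 8.96 to 10.09, against 8.36 to 10.56 elsewhere, and their neutrophil mean 7.11 to 9.18, against 6.10 to 11.11 elsewhere. Endothelial markers were at 7.54 to 8.74 in the 5 and 7.29 to 10.32 elsewhere, and adipocyte markers at 6.26 to 8.80 and 5.98 to 7.90. Basal and squamous markers were at 7.62 to 8.98 and 6.25 to 9.48, B and plasma cell markers at 6.02 to 7.03 and 5.73 to 9.91, and T and NK cell markers at 5.54 to 7.97 and 5.77 to 8.56. Of the 11 marker lists, 1 gene passed in any comparison by limma, lower in HET than in WT and from the Schwann and nerve list. The part of these cells in the rise was not tested.

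The genes most like the mean of the 8 across the 15 tumors were sought over the whole array, with Pearson's correlation as the measure and no test. Within 100 tested genes of Jup on either side these were Ttc25 (0.90), Stat5b (0.75), Jup (0.75), Kansl1 (0.69) and Stat3 (0.69). Elsewhere the nearest was Eif1-ps3 on chromosome 2, at 0.97, with levels of 11.10 in WT 5, 11.16, 11.22, 11.06 and 10.98 in HOM 1 to HOM 4, and 9.44 to 10.14 in the other tumors. Eif1-ps3 is named as a pseudogene of Eif1, which encodes a factor of start codon selection and lies between the keratins and Gast, beyond the start found at a threshold of 1. Eif1 had no cluster with a single symbol here. A near-identical copy can share probes, so the value of Eif1-ps3 is uncertain as to its source. Gm11413 on chromosome 4 (0.87), Wnt5b on chromosome 6 (0.86), Tcp11l2 on chromosome 10 (0.86) and Bbs9 on chromosome 9 (0.85) came next. Wnt5b, a ligand of Wnt signalling, was 7.29 in WT 5, 7.07, 7.27, 6.97 and 7.09 in HOM 1 to HOM 4, and 5.88 to 6.90 in the others, so its high tumors were the same with smaller differences, 0.28 to 0.60 over the median. Gm11413 was 7.40 in WT 5 and 8.36 to 9.76 in HOM 1 to HOM 4, against 4.63 to 6.77 elsewhere. The most opposite genes were Slc7a1, an arginine transporter gene (-0.82), Pfkfb3, a regulator of glycolysis (-0.81), and Ctps, of CTP synthesis (-0.80).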

How the data were processed

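Total RNA of 15 tumors was measured on Affymetrix whole-transcript arrays, 1 per tumor, from 100 ng of RNA per the labels' protocols. Per the submitters' processing notes, Transcriptome Analysis Console and Affymetrix Expression Console were used; how arrays were normalized is not given in the sources used here. Deposited were the authors' log2 values for 41345 transcript clusters (1.06 to 13.9, log2 taken from the range). Of these, 23521 listed 1 symbol in the platform annotation, and the cluster with the highest mean stood for each of 22180 genes. A gene was tested when above its array's median on at least 5 arrays (14243 genes). Gene order came from a RefSeq table of GRCm38.p6.

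All tumors entered 1 limma fit (version 3.58.1, R 4.3.3) with genotype as factor (12 residual degrees of freedom, two-sided, Benjamini-Hochberg, threshold 0.05), after the fit was tested on simulated data. Runs and differences from the median are descriptions, made with pandas 2.3.3. The number of arrays limits precision. Members, the 22 gene and marker lists and all rules were chosen with earlier results of these data known. Named were the members, Jup, Ctnnb1, Erbb2, the 4 tested genes beyond each end, up to 5 most like genes within 100 genes of Jup and 5 elsewhere, and the 2 brightest tested genes of each pathway list. Med24, Stat5a, Ghdc, Cdh1, Krt14, Krt19 and the 3 most opposite genes were added after their values were seen. Alternatives were other filters, normalization, cluster choice, models, heights and gaps, and leaving out tumors. Replicate numbers are in accession order, so they pair no tumors.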

Additional observations from a re-analysis of the deposited data

Results flagged for a closer look

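In groups of 5 tumors, 1 tumor stood far from the other 4 in 10 of the 51 groups checked (Dixon's gap over range above 0.71), where chance flags about 1 in 20 groups. HOM 5 lay below the other HOM tumors for Jup (11.17), P3h4 (8.93), Nt5c3b (8.56), Klhl11 (7.57), Acly (10.42) and Cnp (9.21). WT 5 lay above the other WT tumors for Klhl10 (6.60), Klhl11 (10.52) and the cluster that lists Dnajc7 and Nkiras2 (10.66). Zfp385c, which ended the run in HOM 3, was 7.85 there. These genes share their tumors and were chosen because they are high together in WT 5 and HOM 1 to HOM 4, so 9 of the 10 restate that choice and their number is not to be read against chance.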

How the results depend on the processing

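The number of tumors counted with a run was 2 at a height of 1.5 and 3 with a gap of 1 gene. In the other settings it was between 4 and 6. Where it was 6, HET 3 had joined. Where it was 4, HOM 2 was not counted because its Hap1 and Jup fell short, though its P3h4 was still raised. The count left out any rise with no raised gene at or before Jup, as in HOM 1 and HOM 2 at 1.5. Without WT 5 and HOM 5 the genes past the threshold numbered 1 in HOM against WT and 3 in HOM against HET, and 0 with each single tumor left out. In HET against WT, Jup's difference turned to 0.50 with an epithelial marker covariate, to 0.18 without WT 5 (also with HOM 5 left out) and to 0.33 without HET 1, and Klhl11's to 0.062 without WT 5, with or without HOM 5; the cause was not tested. With single tumors left out these differences ran from -0.43 (without HET 3) to 0.33 for Jup and from -0.63 (without WT 4) to 0.062 for Klhl11. Without WT 5 the HET against WT differences of Hap1, Nt5c3b, Acly, Cnp and Dnajc7 shrank to -0.19, -0.17, -0.17, -0.28 and -0.040 and that of P3h4 grew to 0.96. Leaving out single tumors moved the count among the 8 genes and Jup at an unadjusted p under 0.05 in HOM against WT from 4 to between 0 (without HOM 4) and 8 (without HOM 5). Klhl10 did not pass the filter without WT 5 or without any 1 of HOM 1 to HOM 4, so it is missing from the counts there. Over all genes, HET against WT gave 16 higher and 33 lower without HET 3 and 9 and 9 without HET 5, with 0 of the 8 genes and Jup in either. No paired analysis was possible because the labels give no replicate numbers across genotypes. Scanner files were not used here, so signal over background is unknown, which bears most on Klhl10.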

Other observations

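Some clusters with no listed gene followed the 8 genes as closely. Cluster 17256345 was 8.9997 in WT 5, 9.30, 9.30, 8.90 and 8.59 in HOM 1 to HOM 4, and 6.56 to 7.09 in the other 10 tumors. Cluster 17486461 was 8.21 in WT 5, 8.10, 8.09, 8.11 and 7.97 in HOM 1 to HOM 4, and 5.50 to 6.86 in the others. Neither was placed on a chromosome here, and both were picked for this likeness. Of the 41345 clusters, 802 repeated the values of an earlier cluster in all 15 tumors. The 2 arrays with the closest values over all clusters were WT 5 and HOM 1 (Pearson correlation 0.988). Smarce1, a chromatin remodelling gene on the side toward Erbb2 that was singled out from its values, stood at 11.96 in WT 5 and 8.95 in HOM 1, and 9.36 to 10.27 in the other 13 tumors, so those 2 tumors stood at opposite ends for it.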
